A study of Homo sapiens with 49 samples.

Results

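The nuclear receptors other than the estrogen and progesterone receptors were described in Ishikawa cells, a line from a human endometrial adenocarcinoma, exposed to ethinyl estradiol, the synthetic estrogen of oral contraceptives. A list of 41 receptor genes was taken by gene symbol, and for each gene the microarray probe set of highest mean across the 49 arrays was used. Of the 41 genes, 35 had a probe set that the platform annotation gives to that gene alone. A further 6 (NR1D1, NR1H2, NR1H4, NR1I2, HNF4A and NR2F2) had none and were not analysed here. Of the 35, 19 exceeded a log2 level of 4, taken as the floor of detection, on 6 or more arrays, and these 19 stood among 11075 genes above that floor in the whole series.

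Cells were kept for 72 h with the ethanol vehicle (6 arrays) or with ethinyl estradiol at 0.1 pM (6 arrays), 0.3 pM (7 arrays), 1, 3, 10, 100 or 1000 pM (6 arrays each). The line was maintained in phenol red-free medium with fetal serum and insulin, and all 8 groups, controls included, were moved before treatment into medium with the supplement that the labels call CSS. All samples came from 1 cell line. Nothing in the labels tells if replicates are independent cultures, so the p-values reflect variation among these arrays that could be technical. Each sample had 1 Affymetrix array of the type HT HG-U133 Plus PM, and the values are the log2 levels that the authors deposited.

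Most nuclear receptors are transcription factors that share a DNA-binding domain and a ligand-binding domain. Steroid receptors such as the glucocorticoid and mineralocorticoid receptors bind DNA as homodimers, while thyroid hormone, vitamin D, retinoic acid, PPAR and liver X receptors pair with a retinoid X receptor. Orphan members have no settled natural ligand, and all recruit shared coactivators and corepressors, so that receptors in one cell can draw on the same partners as the estrogen receptor.

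The labels were checked on both genes that the list leaves out. PGR, the progesterone receptor and an estrogen target, averaged 9.15 ± 0.19 at 1000 pM and 4.02 ± 0.57 in vehicle (log2 level, SD, n = 6 each), while ESR1, the estrogen receptor alpha, averaged 8.29 ± 0.08 at 1000 pM and 8.24 ± 0.08 in vehicle. All 6 epithelial markers (EPCAM, CDH1, KRT8, KRT18, KRT19 and PAX8) were above the floor, and 0 of 6 stromal, 0 of 6 immune and 0 of 4 endothelial markers were, with highest levels of 3.93, 3.37 and 3.30. None of the 6 epithelial markers was called at 1000 pM, and without 4 arrays described next CDH1 was 0.13 lower (adjusted p = 0.0141). Across all 49 arrays the median log2 level lay between 2.95 and 3.05. On 4 arrays (replicate 5 of vehicle, replicate 2 at 0.3 pM, and replicate 6 at both 3 and 1000 pM) the beta-actin 3′ probe set exceeded the 5′ one by 2.67 to 4.62 on the log2 scale, against 0.80 to 2.06 on the other 45 arrays. The same GAPDH difference was 0.40 to 1.79 on those 4 arrays and −0.21 to 0.19 on the others. Some results below are given with and without these arrays, and a value given once includes them unless the text says otherwise.

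The receptors above the floor came from many branches of the family. The glucocorticoid and mineralocorticoid receptors (NR3C1 and NR3C2), both thyroid hormone receptors (THRA and THRB) and both COUP-type receptors measured (NR2F1 and NR2F6) were above it. So were 2 of 3 retinoid X receptors (RXRA and RXRB), 2 of 3 PPARs (PPARA and PPARD), 1 of 3 estrogen-related receptors (ESRRA), the vitamin D receptor VDR, the liver X receptor NR1H3, the REV-ERB beta gene NR1D2, the HNF4 gamma gene HNF4G, both testicular orphan receptors (NR2C1 and NR2C2), NR4A2 and NR6A1. Of the 19, 17 exceeded the floor on all 49 arrays, HNF4G did so on 17 arrays and NR6A1 on 6. Just outside the rule, NR4A1 exceeded it on 2 arrays, 1 in vehicle and 1 at 0.3 pM, with a highest level of 4.13.

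The other 16 receptors were not above the floor on 6 arrays, which bounds their levels and does not show that they were absent. They were RARB and RARG of the retinoic acid receptors, RXRG, the adipogenic receptor PPARG, ESRRB and ESRRG, the clock receptors RORA and RORB, the xenobiotic receptor NR1I3, the neural and retinal receptors NR2E1 and NR2E3, NR4A1 and NR4A3, the steroidogenic regulators NR5A1 and NR5A2, and the small heterodimer partner NR0B2. Their highest levels on any array ranged between 2.30 for RXRG and 4.13 for NR4A1. NR1D1, the REV-ERB alpha gene, overlaps THRA on the opposite strand, and 3 probe sets carry both symbols; 1 of these was above the floor on all 49 arrays, at 4.39 ± 0.20 at 1000 pM and 4.54 ± 0.36 in vehicle (SD, n = 6 each), and its signal cannot be assigned to either gene.

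**Figure D1:**
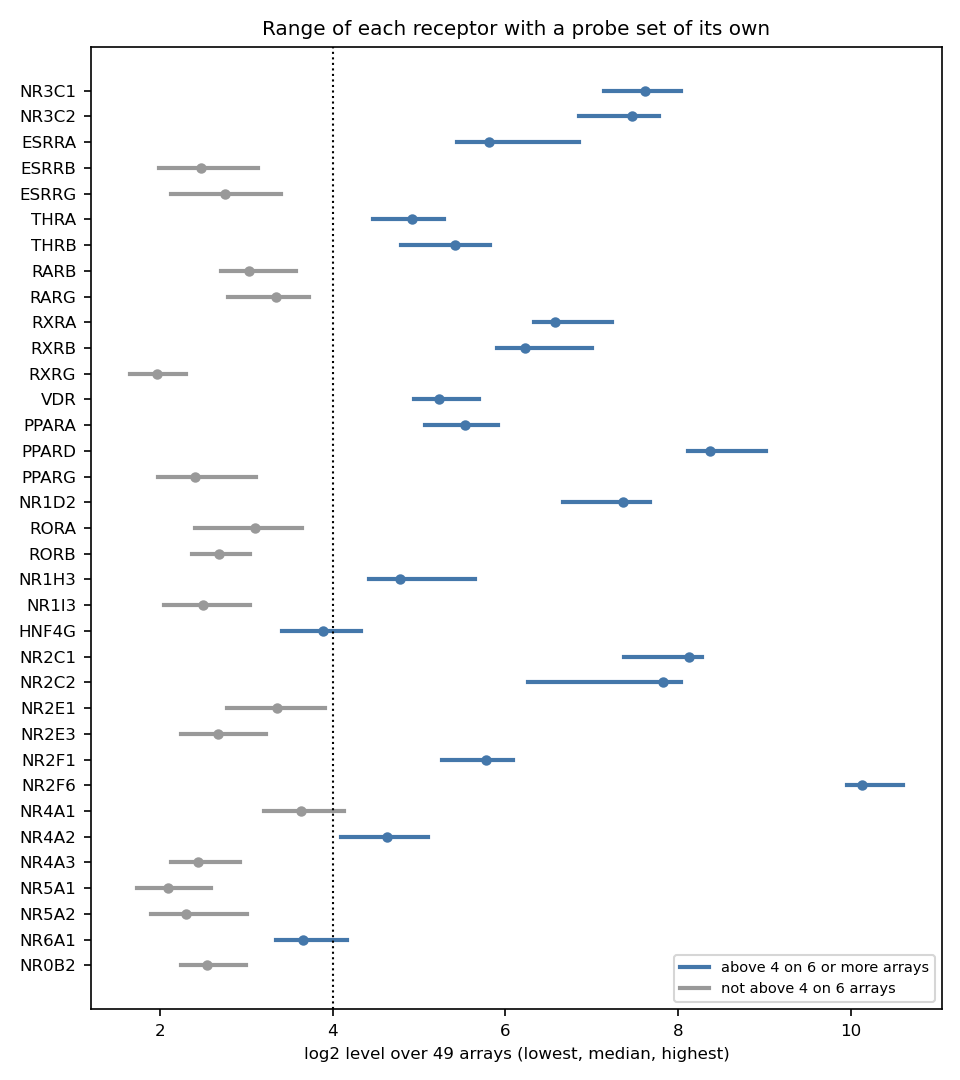
Lowest, median and highest log2 level over the 49 arrays (horizontal axis) of the 35 receptors with a probe set of their own, blue where the level exceeded 4 (dotted line) on 6 or more arrays and grey where it did not. The 19 blue genes include HNF4G and NR6A1, which straddle the line; levels of different probe sets are not comparable with each other.

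The mineralocorticoid receptor NR3C2 was lower at 1000 pM than in vehicle, a call kept under 14 of 15 other settings. At 100 pM NR3C2, PPARA, THRA and RXRA were called lower than in vehicle, but these calls were less stable. Of 15 other settings, 10 ended the THRA call, 9 that of RXRA, 5 that of NR3C2 and 3 that of PPARA. At 1000 pM THRA and RXRA differed from vehicle by only −0.04 and −0.06 on the log2 scale. Against the 0.1 and 0.3 pM groups, which share no array with vehicle, NR3C2, PPARA and NR1H3 were lower at 100 and 1000 pM. The arrays at 100 and 1000 pM are the same in both kinds of comparison, so the results are not independent. The NR1H3 call was lost when any 1 of 16 of the 25 arrays was left out. Each change was under 1.5-fold. Some other settings called NR1D2 higher at 100 and 1000 pM than at 0.1 and 0.3 pM.

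Differences were tested with limma over all 11075 genes, and a gene was called where its Benjamini-Hochberg adjusted p was under 0.05. At 0.1, 0.3 and 1 pM 0 of 19 receptors were called, with 0% of all genes called. At 3 pM 0 receptors were called against 0.153% of all genes, and at 10 pM 0 against 0.858%. At each of these concentrations 1 receptor had an unadjusted p under 0.05. At 100 pM 4 of 19 were called, all lower, which is 21.1% of them against 10.1% of all genes called and 6.27% called lower. At 1000 pM 1 of 19 was called, lower, which is 5.26% against 7.21% of all genes called and 4.33% called lower. In the comparison of 100 and 1000 pM with 0.1 and 0.3 pM 3 of 19 were called, which is 15.8%, all lower, against 13% of all genes called and 7.91% called lower. The F test over the 8 groups called 1 of 19, NR3C2, against 6.99% of all genes. The 7 comparisons with vehicle share its 6 arrays.

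Without the 4 arrays that stood apart, 2 receptors were called at 100 pM (NR3C2 and PPARA), against 11% of all genes, and 1 at 1000 pM (NR3C2), against 8.81%. In the comparison of the high with the low concentrations 5 were then called, against 21.2% of all genes. NR3C2, PPARA and NR1H3 were lower there and NR1D2 was higher. The fifth, NR6A1, averaged under the floor in both groups, so no direction is read from it.

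Most differences of the receptors were small. At 1000 pM they ranged between −0.41 for NR3C2 and 0.21 for HNF4G on the log2 scale, with 14 of 19 below 0. HNF4G and NR6A1, both among the 19, averaged under the floor at 1000 pM and in vehicle. The highest difference after HNF4G was 0.16 for NR1D2. The median of the 19 was −0.06 at 1000 pM, beside −0.01 over all genes. At 100 pM the median was −0.19, beside −0.02 over all genes, again with 14 of 19 below 0. Against the same vehicle arrays the count was 13 of 19 at 0.1 and at 0.3 pM, and 14 at 1, 3 and 10 pM. The count below 0 therefore did not set the high concentrations apart. It was also 14 for 100 and 1000 pM against 0.1 and 0.3 pM. Without the 4 arrays the medians of the receptors were −0.09 at 1000 pM and −0.12 at 100 pM.

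**Figure D2:**
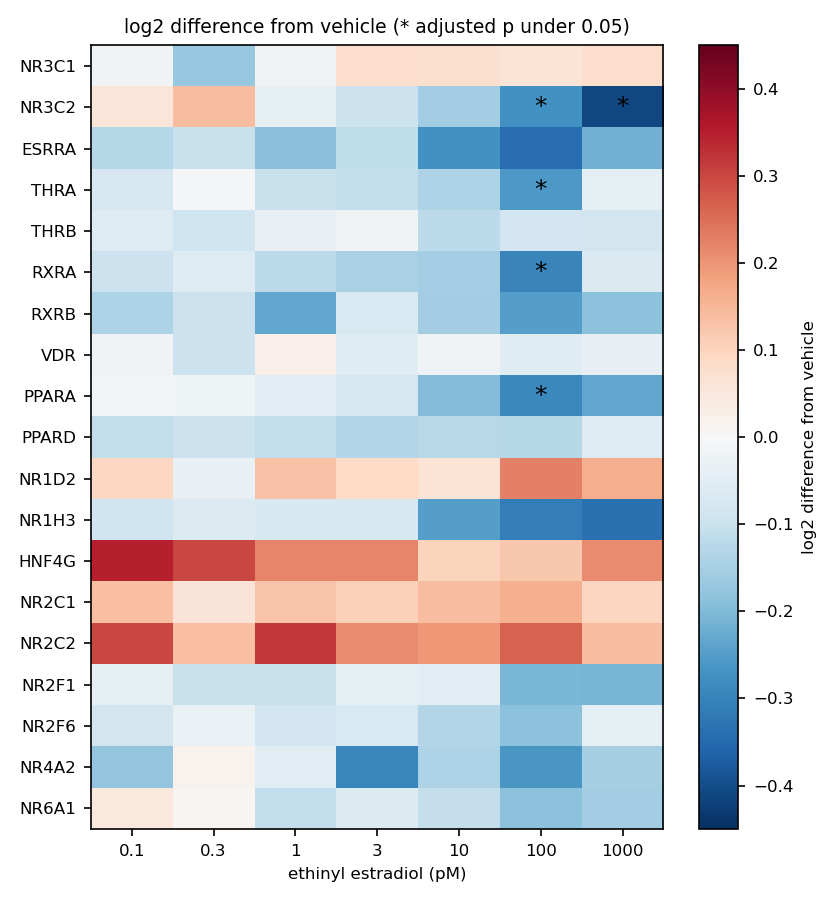
Log2 difference from vehicle (colour) of the 19 receptors above the floor (rows) at each concentration of ethinyl estradiol (columns, pM), with an asterisk where limma's adjusted p was under 0.05. The 5 asterisks stand at 100 pM (NR3C2, THRA, RXRA and PPARA) and at 1000 pM (NR3C2).

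The promoters of the 3 receptors called between the high and the low concentrations are shown to place them against the estrogen response element, a palindrome of GGTCA half-sites. Windows from 250 bases before to 50 after each start site were taken from RefSeq on GRCh38.p14, and of the windows listed for a gene the one with most half-sites was printed. Capitals mark GGTCA or its complement TGACC, the strand is that of the gene, and positions count from the start site.
NR3C2 (chr4:148442365-148442664, minus strand): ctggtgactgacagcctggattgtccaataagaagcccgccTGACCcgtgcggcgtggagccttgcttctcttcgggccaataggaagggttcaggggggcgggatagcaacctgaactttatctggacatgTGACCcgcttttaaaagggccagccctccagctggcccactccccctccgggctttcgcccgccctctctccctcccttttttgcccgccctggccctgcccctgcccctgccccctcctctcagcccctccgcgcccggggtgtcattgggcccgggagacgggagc
PPARA (chr22:46150276-46150575, plus strand): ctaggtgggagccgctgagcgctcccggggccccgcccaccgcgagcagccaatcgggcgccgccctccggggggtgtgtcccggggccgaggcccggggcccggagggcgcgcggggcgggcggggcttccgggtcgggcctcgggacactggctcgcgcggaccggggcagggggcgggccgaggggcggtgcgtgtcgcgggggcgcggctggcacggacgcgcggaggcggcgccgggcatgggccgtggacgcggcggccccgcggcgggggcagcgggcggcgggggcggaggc
NR1H3 (chr11:47257746-47258045, plus strand): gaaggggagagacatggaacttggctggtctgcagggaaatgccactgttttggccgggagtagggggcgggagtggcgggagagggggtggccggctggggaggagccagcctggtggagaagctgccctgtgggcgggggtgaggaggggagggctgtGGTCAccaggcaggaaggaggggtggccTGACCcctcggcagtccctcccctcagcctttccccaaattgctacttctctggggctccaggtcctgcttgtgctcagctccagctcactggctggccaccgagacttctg

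The NR3C2 window holds TGACC at −209 and −118, the NR1H3 window holds GGTCA at −90 and TGACC at −62, and the PPARA window, 85.7% G and C, holds none. NR3C2 and NR1H3 had 4 windows each and PPARA had 2. The windows not printed held no half-site in NR3C2 and PPARA, and at most 1 in NR1H3. Printed windows were chosen for their half-sites, so they cannot be set against the shares per window that follow. A half-site in either orientation was in 37.2% of the 78 windows of 36 listed receptors and in 37.4% of all 35116 windows. The longer form AGGTCA or TGACCT, of which every match also counts as a half-site, was in 14.1% of the receptors' windows and 13.8% of all windows. The full palindrome, GGTCA and TGACC with 3 bases of any kind between them, was in 0 of the 78 and in 0.057% of all windows. These matches describe letters in the windows and say nothing of binding.

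NR3C2, the mineralocorticoid receptor, binds aldosterone and cortisol and regulates sodium transport in epithelia. Its lowest, median and highest log2 levels were 7.14, 7.57 and 7.75 in vehicle, 7.49, 7.55 and 7.72 at 0.1 pM, and 7.52, 7.69 and 7.78 at 0.3 pM. They were 7.28, 7.46 and 7.68 at 1 pM, 7.24, 7.42 and 7.59 at 3 pM, and 7.22, 7.35 and 7.54 at 10 pM. They were 6.85, 7.25 and 7.58 at 100 pM and 6.96, 7.12 and 7.28 at 1000 pM. The group medians thus lay progressively lower above 0.3 pM, and the 1000 pM and vehicle groups overlapped through vehicle replicate 5, the lowest vehicle array and 1 of the 4 arrays that stood apart.

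At 1000 pM NR3C2 averaged 7.12 ± 0.14, against 7.53 ± 0.22 in vehicle (SD, n = 6 each), a log2 difference of −0.41 ± 0.09 (SE), or 1.33-fold lower (adjusted p = 0.00158 by limma). All 6 arrays at 1000 pM lay below the vehicle mean. Without the 4 arrays the difference was −0.46 (adjusted p = 1.32e-04). A fit of only the 1000 pM and vehicle arrays gave an adjusted p of 0.0600, above the threshold.

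At 100 pM NR3C2 was 0.27 ± 0.09 lower on the log2 scale (SE, adjusted p = 0.0464), with 5 of 6 arrays below the vehicle mean, and 0.35 lower without the 4 arrays (adjusted p = 0.00274). That call was lost when any 1 of 8 of the 12 arrays was left out. The 12 arrays at 100 and 1000 pM averaged 7.19 ± 0.20, against 7.63 ± 0.11 on the 13 arrays at 0.1 and 0.3 pM (SD), a difference of −0.44 ± 0.06 (SE, adjusted p = 5.24e-07). Of those 12 arrays, 11 lay below the lowest of the 13, and the groups overlapped through 1 array at 100 pM. In the F test NR3C2 had an adjusted p of 9.60e-05.

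NR3C1, the glucocorticoid receptor, is the closest relative of NR3C2 and averaged 7.70 ± 0.13 at 1000 pM, against 7.62 ± 0.29 in vehicle (SD, n = 6 each). The difference of 0.08 had a 95% interval of −0.13 to 0.29 and did not pass the test. Against 0.1 and 0.3 pM it was 0.16 higher at the high concentrations (adjusted p = 0.132), with all 12 arrays above the low group's mean. Its 4 entering probe sets did not share a sign there, with 0.16, −0.13, 0.08 and −0.0041 on the log2 scale. The probe set used is of a class that Affymetrix marks as able to bind related transcripts.

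**Figure D3:**
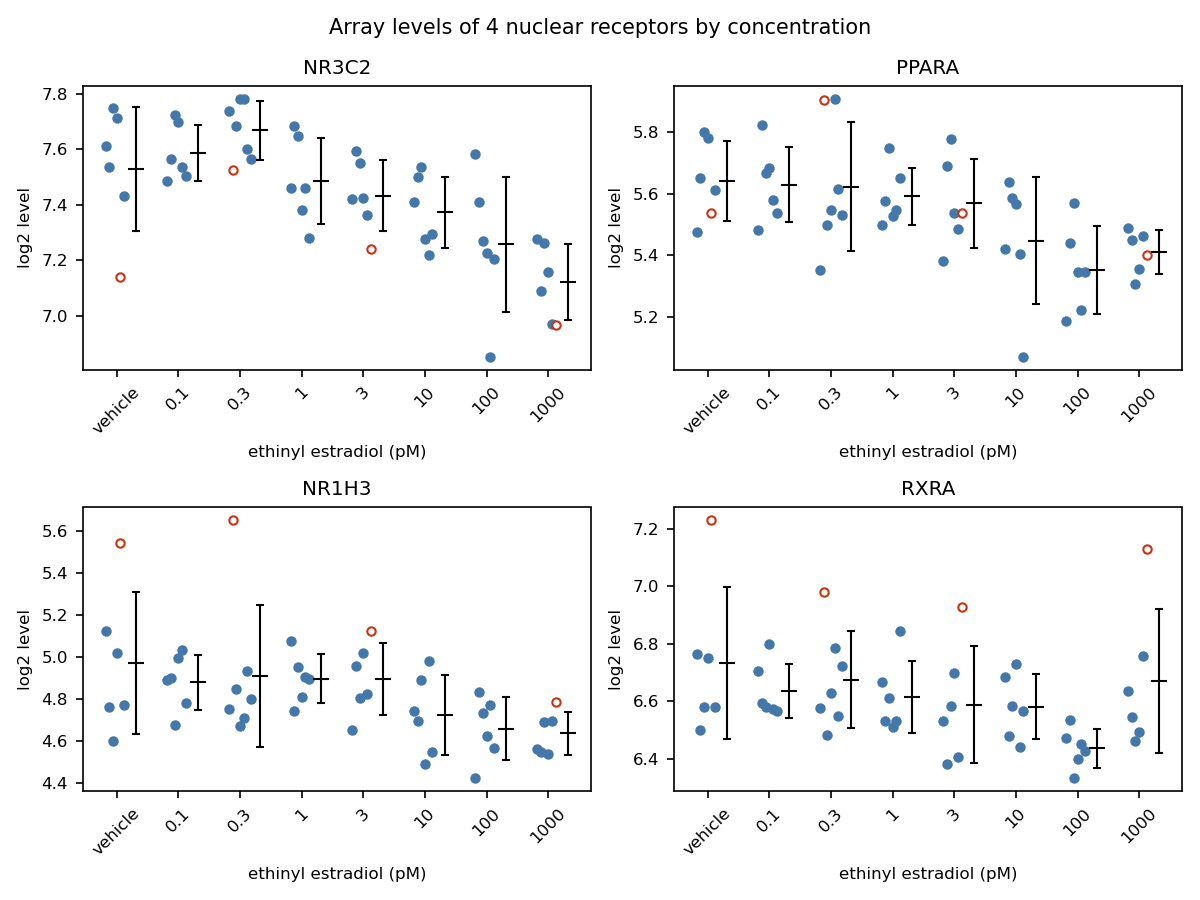
Log2 level (vertical axes, own scale each) of NR3C2, PPARA, NR1H3 and RXRA on each array by ethinyl estradiol concentration (vehicle, then 0.1 to 1000 pM), with group mean and SD beside the points and the 4 arrays that stood apart as open red circles. NR3C2 lay between 6.96 and 7.28 at 1000 pM, while in RXRA the open circles are the highest points of their groups.

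PPARA, the fatty acid sensor that drives genes of fatty acid oxidation, was the other receptor to differ both from vehicle and from the low concentrations. Its lowest, median and highest log2 levels were 5.48, 5.63 and 5.80 in vehicle, 5.48, 5.62 and 5.82 at 0.1 pM, and 5.35, 5.55 and 5.91 at 0.3 pM. They were 5.50, 5.56 and 5.75 at 1 pM, 5.38, 5.54 and 5.78 at 3 pM, and 5.07, 5.49 and 5.64 at 10 pM. They were 5.19, 5.35 and 5.57 at 100 pM and 5.31, 5.43 and 5.49 at 1000 pM. The high and the vehicle groups overlapped, although all 6 arrays at 100 pM and all 6 at 1000 pM lay below the vehicle mean.

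At 100 pM PPARA averaged 5.35 ± 0.14, against 5.64 ± 0.13 in vehicle (SD, n = 6 each), a difference of −0.29 ± 0.09 (SE), or 1.22-fold lower (adjusted p = 0.0283). Without the 4 arrays it was −0.31 (adjusted p = 0.0166). Leaving out any 1 of 4 of the 12 arrays ended that call, as did 3 of 15 other settings. At 1000 pM the difference was −0.23 with a 95% interval of −0.41 to −0.05 and did not pass (adjusted p = 0.117). The 12 arrays at 100 and 1000 pM averaged 5.38 ± 0.11, against 5.63 ± 0.17 on the 13 arrays at 0.1 and 0.3 pM (SD), a difference of −0.24 ± 0.06 (SE, adjusted p = 0.00378). That result was called whichever single array was left out.

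PPARA has 8 probe sets of its own, of which 3 entered the fit. With each probe set tested on its own, a setting chosen after seeing the data, the second of them averaged 5.12 ± 0.19 at 1000 pM, against 5.40 ± 0.14 in vehicle (SD, n = 6 each). Its difference of −0.28 passed at 1000 pM (adjusted p = 0.0493, with 5.18% of all probe sets called), and the third gave −0.11 (adjusted p = 0.790). At the high against the low concentrations these 3 probe sets gave −0.24, −0.18 and −0.27, of which the first passed. PPARD, the more broadly expressed PPAR, averaged 8.41 ± 0.15 at 1000 pM and 8.47 ± 0.29 in vehicle (SD, n = 6 each), and the 95% interval of the difference was −0.23 to 0.12.

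NR1H3, the oxysterol receptor LXR alpha, had the lowest, median and highest levels 4.42, 4.68 and 4.83 at 100 pM and 4.54, 4.63 and 4.78 at 1000 pM. Those at 0.1 pM were 4.67, 4.89 and 5.03, and those at 0.3 pM 4.67, 4.80 and 5.65. In vehicle they were 4.60, 4.89 and 5.54. The groups overlapped in every comparison, and the highest arrays of the vehicle and 0.3 pM groups were vehicle replicate 5 and 0.3 pM replicate 2, both among the 4 that stood apart.

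The 12 arrays at 100 and 1000 pM averaged 4.65 ± 0.12 for NR1H3, against 4.90 ± 0.26 on the 13 arrays at 0.1 and 0.3 pM (SD). The difference of −0.25 ± 0.09 (SE) had an adjusted p of 0.0479, and without the 4 arrays it was −0.20 (adjusted p = 0.0199). The call was lost when any 1 of 16 of the 25 arrays was left out. Against vehicle NR1H3 was not called at 1000 pM, with a difference of −0.33 and a 95% interval of −0.58 to −0.08.

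The heterodimer partners RXRA and RXRB bind 9-cis retinoic acid and serve many of the other receptors. RXRA had the lowest, median and highest levels 6.33, 6.44 and 6.53 at 100 pM and 6.46, 6.59 and 7.13 at 1000 pM, against 6.50, 6.67 and 7.23 in vehicle. All 6 arrays at 100 pM lay below the vehicle mean, and their range overlapped that of vehicle between 6.50 and 6.53. At 100 pM its difference was −0.30 ± 0.10 (SE, adjusted p = 0.0474), but at 1000 pM it was −0.06 with a 95% interval of −0.26 to 0.14. On all 4 arrays that stood apart RXRA was higher than the mean of the other arrays of the group, by 0.35 to 0.60, and without them the 100 pM difference was −0.20 and no longer passed (adjusted p = 0.0547). RXRB averaged 6.20 ± 0.19 at 1000 pM, against 6.39 ± 0.33 in vehicle (SD, n = 6 each), and the 95% interval of the difference was −0.43 to 0.06.

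The thyroid hormone receptor THRA had the lowest, median and highest levels 4.47, 4.76 and 4.92 at 100 pM and 4.78, 4.99 and 5.05 at 1000 pM, against 4.78, 5.01 and 5.29 in vehicle. The groups overlapped, with all 6 arrays at 100 pM and 3 of 6 at 1000 pM below the vehicle mean. At 100 pM the difference was −0.26 ± 0.09 (SE, adjusted p = 0.0464) and without the 4 arrays −0.20 (adjusted p = 0.107). At 1000 pM it was −0.04. A second THRA probe set, tested on its own, gave −0.07 at 100 pM (adjusted p = 0.791 by limma) and 0.08 at 1000 pM, so the call at 100 pM rests on 1 probe set. THRB averaged 5.38 ± 0.32 at 1000 pM, against 5.47 ± 0.13 in vehicle (SD, n = 6 each), with a 95% interval of −0.30 to 0.14.

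Among the remaining receptors of known ligands, VDR, which binds the active form of vitamin D, averaged 5.24 ± 0.16 at 1000 pM, against 5.28 ± 0.24 in vehicle (SD, n = 6 each). Its 95% interval was −0.21 to 0.14. NR1D2, the heme-binding clock repressor REV-ERB beta, averaged 7.43 ± 0.15 at 1000 pM, against 7.27 ± 0.32 in vehicle, with an interval of −0.04 to 0.37. At 100 and 1000 pM NR1D2 averaged 7.46 ± 0.14 (SD, n = 12), against 7.30 ± 0.11 at 0.1 and 0.3 pM (SD, n = 13), with 11 of 12 arrays above the low group's mean. That difference of 0.16 did not pass over the 49 arrays (adjusted p = 0.127) and passed without the 4 arrays, at 0.18 (adjusted p = 0.00920). It also passed over the 49 arrays with array weights or the beta-actin difference as a covariate, and in a fit of only the compared groups.

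The orphan receptors differed little. ESRRA, which binds estrogen response elements without a known natural ligand and drives mitochondrial genes, averaged 5.83 ± 0.25 at 1000 pM, against 6.05 ± 0.46 in vehicle (SD, n = 6 each), with a 95% interval of −0.54 to 0.11. NR2F1, or COUP-TFI, averaged 5.63 ± 0.17 at 1000 pM and 5.84 ± 0.13 in vehicle, with an interval of −0.40 to −0.01 and an adjusted p of 0.230. NR2F6, a COUP-type repressor, averaged 10.19 ± 0.15 at 1000 pM and 10.23 ± 0.20 in vehicle, with an interval of −0.19 to 0.11. All 3 differences lay below 0, and none passed the test.

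The testicular receptors NR2C1 and NR2C2, which act mainly as repressors at direct repeats, showed how far the 4 arrays set the spread. NR2C1 averaged 8.09 ± 0.13 at 1000 pM, against 7.99 ± 0.31 in vehicle (SD, n = 6 each), with a 95% interval of −0.06 to 0.26. NR2C2 averaged 7.73 ± 0.13 at 1000 pM, against 7.59 ± 0.67 in vehicle, where replicate 5 stood at 6.26. Its difference of 0.14 at 1000 pM was −0.09 without the 4 arrays, and its residual SD was 0.278 with them and 0.104 without, with no call either way.

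The other members lay near the floor. NR4A2, the inducible orphan receptor NURR1, had the lowest, median and highest levels 4.38, 4.51 and 4.63 at 100 pM, against 4.63, 4.73 and 5.02 in vehicle. These ranges lay edge to edge without overlapping, but its difference of −0.26 was not called (adjusted p = 0.153), and at 1000 pM it was −0.15 with a 95% interval of −0.40 to 0.10. Like that of NR3C1, its probe set is of the class marked as able to bind related transcripts. A second NR4A2 probe set above the floor on all 49 arrays, tested on its own, gave −0.15 at 100 pM. At 1000 pM it gave −0.30 and did not pass (adjusted p = 0.0540 by limma). HNF4G averaged 3.89 ± 0.32 at 1000 pM, against 3.67 ± 0.27 in vehicle (SD, n = 6 each), with an interval of −0.09 to 0.51. NR6A1, the germ cell nuclear factor, was above the floor on 0 of 6 arrays at 1000 pM and on 2 of 6 in vehicle. It passed the filter only through arrays of vehicle and of 0.1 to 3 pM, and every group mean lay under the floor, so its differences are not measured ones.

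**Figure D4:**
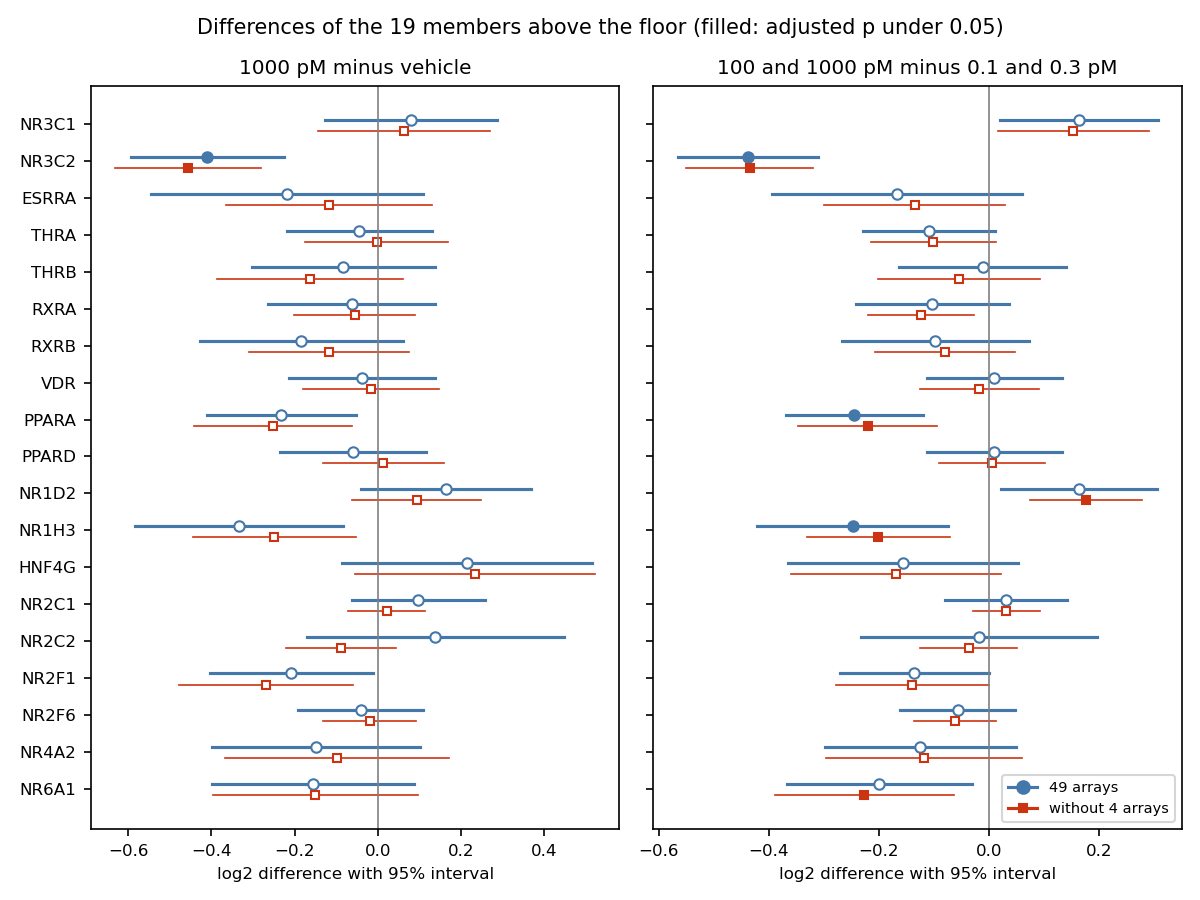
Log2 differences (horizontal axes, with 95% intervals) of the 19 receptors at 1000 pM minus vehicle (left) and at 100 and 1000 pM minus 0.1 and 0.3 pM (right), over 49 arrays (blue circles) and without the 4 arrays that stood apart (red squares), filled where limma's adjusted p was under 0.05. NR3C2 is filled in both panels, at −0.41 and −0.44 over 49 arrays.

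The 4 arrays moved the receptors in a shared pattern. On all 4, 8 receptors (ESRRA, THRA, RXRA, RXRB, VDR, PPARD, NR1H3 and NR2F6) lay above the mean of the other arrays of their group, and 6 (NR3C1, NR3C2, NR1D2, HNF4G, NR2C1 and NR2C2) lay below it. The other 5 did not keep 1 side. The SD of the 19 receptors from their group means was 0.234 to 0.542 on these arrays and 0.0724 to 0.228 on the other 45. The part of RNA quality in these values was not tested. NR3C2 lay low on these arrays and its difference at 1000 pM was larger without them.

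The partners and target genes of the receptors were taken from lists, and their results at 1000 pM against vehicle are given as counts of called genes, beside the 2.88% of all genes called higher and 4.33% called lower. Of 18 coregulators tested, 3 were higher and 1 was lower, with a median difference of 0.00 beside −0.01 over all genes. Without the 4 arrays 2 were higher and 2 lower. PPARGC1A, the coactivator PGC-1 alpha that serves PPARA and ESRRA, fell to 4.63 ± 0.18 at 1000 pM, against 5.53 ± 0.15 in vehicle (SD, n = 6 each). Its lowest and highest levels were 4.36 and 4.83 at 1000 pM, against 5.31 and 5.72 in vehicle, so the groups did not overlap. The difference was −0.90 ± 0.11 (SE, adjusted p = 1.88e-08), −0.53 at 100 pM (adjusted p = 7.71e-04) and −0.35 at 10 pM, where it did not pass.

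NRIP1, the corepressor RIP140, averaged 9.09 ± 0.14 at 1000 pM, against 7.48 ± 0.28 in vehicle (SD, n = 6 each), and was called at 10 pM and above. NCOA4, known as a receptor coactivator and as the ferritinophagy receptor, averaged 11.07 ± 0.11, against 10.52 ± 0.34 in vehicle (log2 difference 0.55, adjusted p = 3.65e-06). Without the 4 arrays the NCOA4 difference was 0.45. Its ranges of 10.90 to 11.22 at 1000 pM and 9.83 to 10.70 in vehicle did not overlap. LCOR, a ligand-dependent corepressor, was 0.24 higher (adjusted p = 0.0272), and without the 4 arrays it was 0.13 higher and did not pass. Without those arrays TBL1XR1, a subunit of corepressor complexes, was 0.14 lower (adjusted p = 0.0159).

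Of 9 glucocorticoid receptor targets tested, 4 were lower and 0 higher, with a median of −0.09. MT2A, a metallothionein that binds zinc and copper, averaged 9.07 ± 0.07 at 1000 pM, against 9.43 ± 0.20 in vehicle (SD, n = 6 each), a difference of −0.36 ± 0.07 (SE, adjusted p = 1.50e-04). Without the 4 arrays that difference was −0.30. CRISPLD2, a secreted glucocorticoid-responsive protein, averaged 6.95 ± 0.07, against 7.27 ± 0.13 in vehicle, a difference of −0.32 ± 0.06 (adjusted p = 1.30e-04). The ranges of both genes at 1000 pM lay wholly below those of vehicle. MT1X at −0.28 and TSC22D3, or GILZ, at −0.26 passed over the 49 arrays and not without the 4. With the mean of its entering probe sets TSC22D3 differed by −0.02 (adjusted p = 0.946). The MT2A and MT1X probe sets are of the class able to bind related transcripts, and metallothionein genes are closely alike. The targets that did not pass included FKBP5 at 0.13, PER1 at 0.14 and SGK1 at −0.09.

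**Figure D5:**
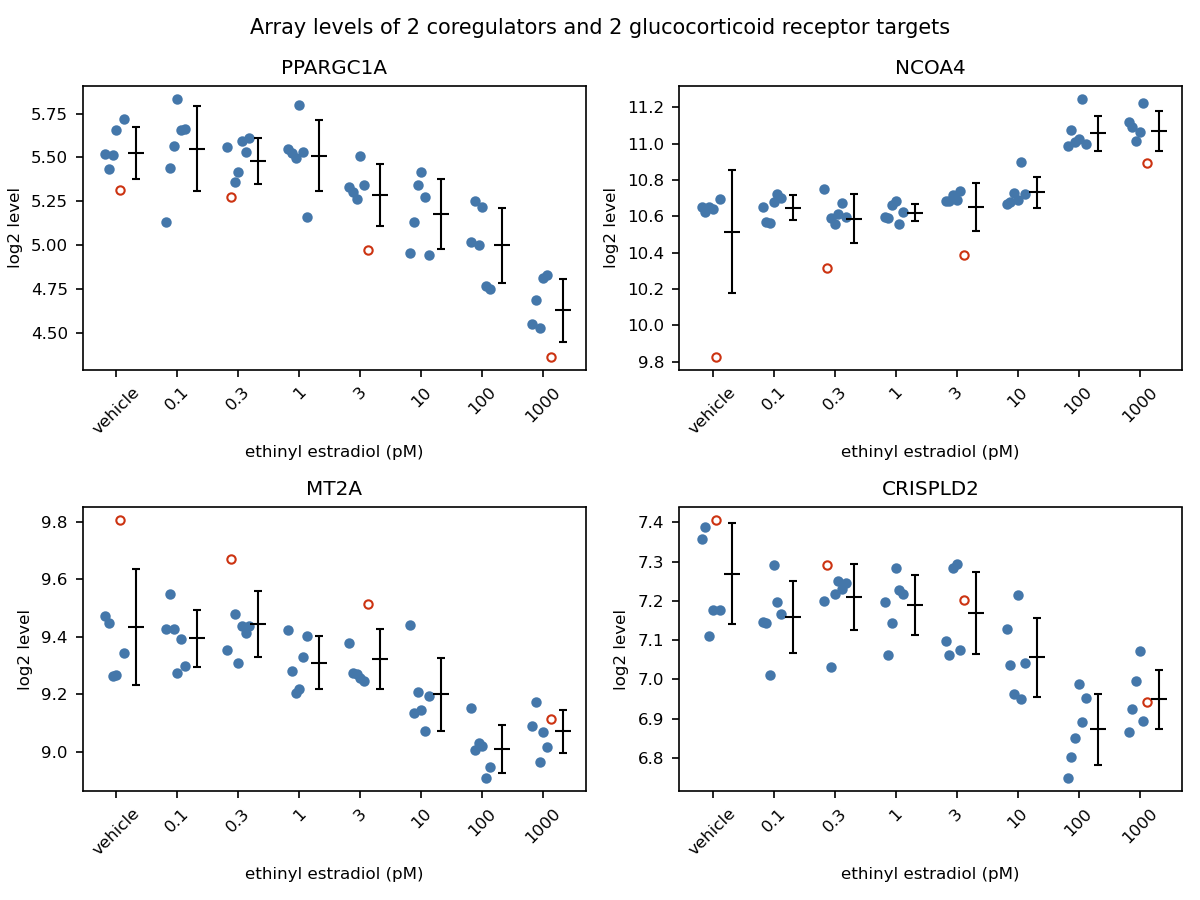
Log2 level (vertical axes, own scale each) of the coregulators PPARGC1A and NCOA4 and the glucocorticoid receptor targets MT2A and CRISPLD2 on each array by ethinyl estradiol concentration (vehicle, then 0.1 to 1000 pM), with group mean and SD beside the points and the 4 arrays that stood apart as open red circles. PPARGC1A lay between 4.36 and 4.83 at 1000 pM, below every vehicle array.

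Retinoid genes were measured for 3 members, of which 1 was higher and 1 lower. DHRS3, which returns retinaldehyde to retinol, was at or under the floor on every vehicle array and at least 8.96-fold higher at 1000 pM (adjusted p = 7.71e-28). CYP26B1, which degrades retinoic acid, averaged 4.93 ± 0.16 at 1000 pM, against 5.37 ± 0.23 in vehicle (SD, n = 6 each), a difference of −0.44 (adjusted p = 0.00900). Of the RAR genes, RARB and RARG were measured and were not above the floor.

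Target lists of the other receptors held few calls at 1000 pM. Of 6 liver X receptor targets, 4 PPAR targets, 6 estrogen-related receptor targets, 9 clock genes and 3 xenobiotic or bile acid receptor targets tested, 0 were called in each list. Their medians were −0.10, −0.26, 0.06, 0.04 and −0.00. Without the 4 arrays CPT1A, the carnitine transferase of fatty acid oxidation, was 0.45 lower (adjusted p = 0.0434), the only call of these 5 lists there. The 1 thyroid hormone target tested, the corepressor HR, was at or under the floor on every vehicle array and at least 1.27-fold higher (adjusted p = 6.06e-05). All 6 listed thyroid hormone targets had a probe set, but only HR passed the filter. It did so mainly through 4 of 6 arrays at 100 pM and 5 of 6 at 1000 pM. This 1 call therefore cannot stand for the list. All 4 vitamin D receptor targets, CYP24A1 among them, were not above the floor.

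Immediate early genes are induced alongside the NR4A receptors, and of 4 tested 2 were lower. The other tested genes were not called, with EGR1 at −0.31 (adjusted p = 0.278 by limma) and DUSP1 at 0.06 (adjusted p = 0.802). FOS, FOSB and ATF3 had probe sets but did not pass the filter. IER2 averaged 7.92 ± 0.18 at 1000 pM, against 8.67 ± 0.35 in vehicle (SD, n = 6 each), a difference of −0.76 (adjusted p = 1.04e-05). Without the 4 arrays that difference was −0.67. IER3 was above the floor on 1 of 6 arrays at 1000 pM and on 6 of 6 in vehicle (adjusted p = 0.00118), and the size of its fall is limited by the floor. NR4A2 differed by −0.15 and was not called, and its second entering probe set gave −0.30 (adjusted p = 0.0540 by limma).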

How the data were processed

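RNA of each sample was hybridized to 1 array, and the deposited values were log2 levels. The submitters' processing notes name GCRMA and Partek, with no version. Background correction, normalization and summarization were therefore the authors', and differences of dim genes can be compressed near the floor. The number of arrays limits the precision. Of 54715 probe sets 40920 had 1 gene symbol in the platform annotation, 864 had several and 12931 none; only the first were used. A probe set above 4 on at least 6 arrays entered, and the one with the highest mean stood for its gene.

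Means of the 8 groups were estimated in R 4.3.3 by limma 3.58.1, with statmod 1.5.0, an intensity trend and Benjamini-Hochberg adjustment over 11075 genes. Intervals are at 95%. Where every vehicle array was at or under the floor, a bound on the fold was taken against the floor. The 4 arrays exceeded the median beta-actin difference by more than 4 scaled median absolute deviations. Alternatives changed the filter, probe set choice, variance prior, normalization, weights, covariates, arrays and threshold. Receptors called in any comparison are given per group, and the others by their level and difference at 1000 pM. Of each list at most 4 called genes are given. The uncalled glucocorticoid targets and immediate early genes, CPT1A, CDH1 and TBL1XR1 were named after their values were seen. The members and lists were chosen with earlier results of these data known. On simulated data for 1000 pM against vehicle (11075 genes) the fit recovered 46% of log2 changes of 0.32, 84% of 1.5-fold and 99.2% of 2-fold changes, with 5.62% false calls. The simulated noise was normal and independent between genes and arrays, and 200 genes were changed per run. It held no deviations shared between genes such as those of the 4 arrays, so these rates may not hold for the measured data. Figures used Python 3.11.15, pandas 2.3.3 and matplotlib 3.10.9.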

Additional observations from a re-analysis of the deposited data

Results flagged for a closer look

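Of 152 sets of 1 receptor in 1 group, 15 held an array whose gap to its nearest neighbour was large for the range of the group (Dixon's criterion), 9.87% where chance gives about 1 in 20. Of these, 12 fell on the 4 arrays that stood apart by their beta-actin probe sets: 5 on vehicle replicate 5, 4 on 0.3 pM replicate 2, 3 on 3 pM replicate 6 and 0 on 1000 pM replicate 6. The part of RNA quality was not tested.

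In vehicle replicate 5 RXRA (7.23), RXRB (7.00) and NR2F6 (10.61) were the highest of their group, and NR2C1 (7.38) and NR2C2 (6.26) the lowest. In 0.3 pM replicate 2 RXRB (6.84) and NR1H3 (5.65) were highest, and NR2C1 (7.78) and NR2C2 (7.25) lowest. In 3 pM replicate 6 ESRRA (6.53) and NR6A1 (4.16) were highest and NR2C2 (7.28) lowest. The other 3 were THRB, lowest at 0.1 pM replicate 4 (5.32) and highest at 10 pM replicate 3 (5.65), and NR2F6, lowest at 10 pM replicate 5 (9.96).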

How the results depend on the processing

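Counts of called receptors stayed at 0 at 0.1 to 10 pM under all settings. At 100 pM the 4 calls became 2 with quantile normalization, the actin difference as covariate, or without 4 or 2 arrays, 1 with median centring or with every probe set as its own entry (chosen after seeing the data), and 0 with no filter, an adjusted p under 0.01 or only the compared groups. Leaving out 1 array gave 0 to 4; 0 came without vehicle replicate 4 or without 100 pM replicate 5, and 1 or 2 without vehicle replicates 1, 2 or 5 or 100 pM replicates 1, 3, 4 or 6. At 1000 pM the 1 call became 2 with array weights and 0 with only the compared groups, and leaving out 1 array gave 1 to 2 (2 without vehicle replicate 3, where NR1H3 passed). For 100 and 1000 pM against 0.1 and 0.3 pM the 3 calls became 6 with array weights or the actin covariate and 5 without 4 arrays, and leaving out 1 array gave 2 to 3. NR1D2 was among the added calls in these 3 settings and with only the compared groups, and was higher in each; NR3C1 was also higher with the actin covariate. With no filter the 3 calls were NR3C2, PPARA and NR5A2, the last higher and below the floor on all arrays, while NR1H3 no longer passed (adjusted p = 0.0782). Without 0.1 pM replicate 5 NR2F1 took the place of NR1H3, and at 100 pM without vehicle replicate 3 the calls were THRA, RXRA and NR1H3. The F test's 1 call became 2 with the mean of probe sets or the actin covariate and 3 with array weights; leaving out 1 array gave 1 to 2 (2 without 0.3 pM replicate 1 or 100 pM replicate 3). With the replicate number as a block the F test called 2 (NR3C2 and PPARA), and the counts at 100 pM (4), 1000 pM (1) and high against low (3) did not move. The labels give no pairing, and in no comparison with vehicle did all 6 same-numbered pairs correlate over 0.1 (−0.51 to 0.57 at 1000 pM). NR3C2 at 1000 pM passed under 14 of 15 settings, with differences of −0.49 to −0.40. A floor of 5 left 16 receptors, and 17 were above 4 on all 49 arrays. No call changed direction. In simulation at these array numbers, with independent noise, 84% of 1.5-fold changes and 46% of log2 changes of 0.32 were recovered, so many changes of the size seen in receptors can be missed.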
